A study of Rattus norvegicus albus with 14 samples.

Results

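Integrins are the cell-surface receptors through which cells hold on to the extracellular matrix, and laminins are the large cross-shaped proteins of the basement membrane that several of them bind. The genes of both families were found by symbol in the rat count tables, which gave 36 of 32545 genes: 25 integrin subunits and 11 laminin chains. The cells were neonatal rat ventricular myocytes, heart muscle cells of 1-day-old Sprague-Dawley rats that were pooled, preplated against fibroblasts and cultured on fibronectin. The groups were DMSO 0.5 h (1 library, 1% DMSO, no drug) and rosiglitazone 0.5, 24 and 48 h (2 libraries each, 10 µmol/L rosiglitazone in 1% DMSO). Rosiglitazone is a thiazolidinedione that activates the nuclear receptor PPARγ. The 14 samples hold no vehicle library of 24 or 48 h. The effects of time in culture and of time with the drug therefore cannot be told apart in any comparison between times.

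An integrin is a pair of an α and a β subunit, and the α subunit largely sets which matrix protein is bound. The pairs of α3, α6 and α7 with β1 bind laminins, those of α1, α2, α10 and α11 bind collagens, and those of α5, α8 and αv bind proteins with the RGD motif, such as fibronectin. A laminin is a trimer of an α, a β and a γ chain and is named by its chains. In heart muscle, laminin with the α2 chain surrounds the muscle cell and is held by α7β1 integrin and by dystroglycan. Laminins with α4 and α5 are typical of blood vessels, and the α3 and β3 chains are typical of epithelia.

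Libraries held 10886559 to 28074620 counts, with replicate 2 of 48 h the shallowest, and 3 counts, the most that a 0 allows, were 0.107 to 0.276 CPM. Levels are given as CPM, the counts of a gene scaled to a common library size. They are not corrected for transcript length, so they are compared between libraries and not between genes. The labels do not tie the libraries of a group to separate cultures. The p-values therefore cover only how far these libraries differ, and that spread may be technical. All 11 heart muscle markers were detected in every library, but their summed level differed widely. It was 8166 CPM in DMSO, 14603 and 13805 CPM with rosiglitazone at 0.5 h, 10995 and 2240 CPM at 24 h and 245 and 1484 CPM at 48 h. In such bulk samples, fewer cells of a type and less RNA per cell cannot be told apart.

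Between rosiglitazone at 48 h and at 0.5 h, transcripts of the integrin subunits α4, α6, α7, α8 and α11 and of the laminin chains α2 and β3 fell. The 8 members past the threshold, with an adjusted p under 0.05 over all 15655 genes tested, included Itga11, Lama2, Itga6, Itga4, Itga7, Lamb3 and Itga8. All 8 of the 36 were lower at 48 h, where 4.62% of all genes tested were called lower, and 0 members were called higher, where 1.97% of genes were. Of the 36 members, 30 had a negative log2 fold change, and the median was -0.95, beside -0.07 over all genes. At 24 h against 0.5 h, Itga11 was the 1 member called, beside 0.0447% of genes called lower and 0.0511% called higher. An unadjusted p under 0.05 was reached there by 15 members, beside 15.7% of genes, and 32 of 36 log2 fold changes were negative. The median then was -1.29, or -1.12 with Lamc3, which had no count at 24 h, set to its bound, beside -0.03 over all genes.

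The calls at 48 h depended on single libraries. Without replicate 1 of 48 h, 0 of the 36 members were called (0.0773% of genes). Without replicate 2 of 48 h there were 5 (2.55% of genes), and without replicate 1 or 2 of rosiglitazone at 0.5 h there were 1 and 3 (0.228% and 0.616% of genes). Without replicate 1 or 2 of 24 h there were 11 and 12, and the share of all genes called was then 17.5% in each case, against 6.59% with all libraries. The fold changes of the members named here as called stayed negative throughout, which their selection in these same libraries made likely beforehand. DESeq2 called 14 members lower at 48 h, beside 12.1% of genes, and 13 lower at 24 h, beside 5.56% of genes. As a description with no test, 18 members had libraries at 48 h that lay below both libraries of 0.5 h with means at least 2-fold apart (22.9% of genes), and 1 lay above (8.85%). At 24 h these numbers were 18 (17.9%) and 0 (5.88%).

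**Figure D1:**
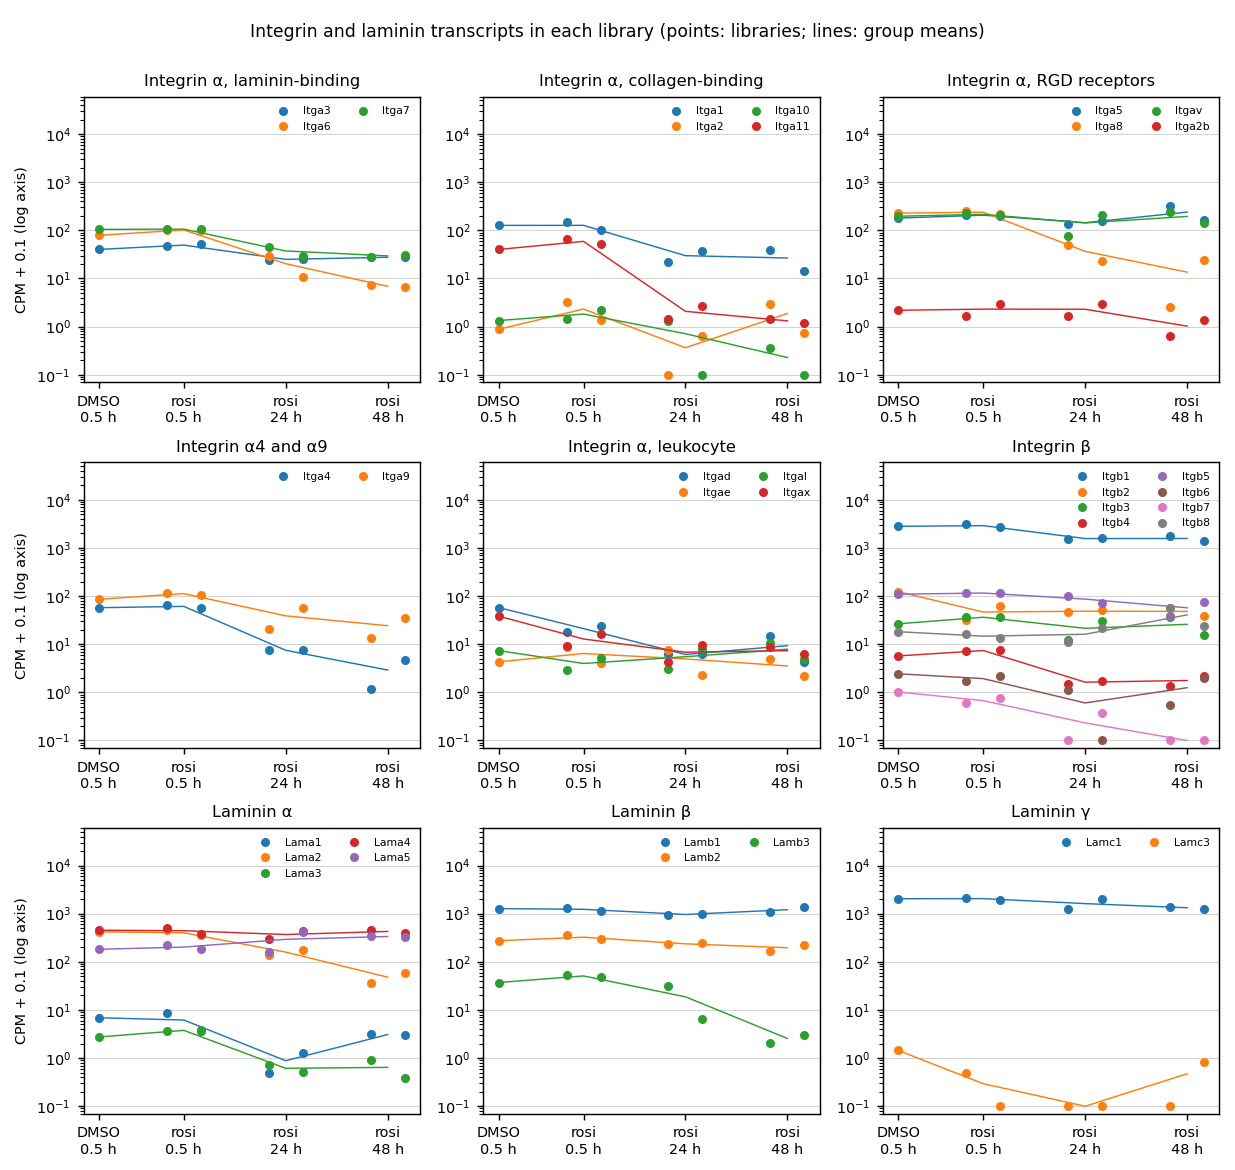
Level of the members described, as CPM + 0.1 on a log axis, in 9 panels by subunit class; points are the 7 libraries (DMSO 0.5 h, then rosiglitazone at 0.5, 24 and 48 h) and lines join group means. Itga11 lies at 50.9 and 67.0 CPM with rosiglitazone at 0.5 h and at 1.12 and 1.32 CPM at 48 h, while Lama4 and Lamb1 overlap between these times.

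**Figure D2:**
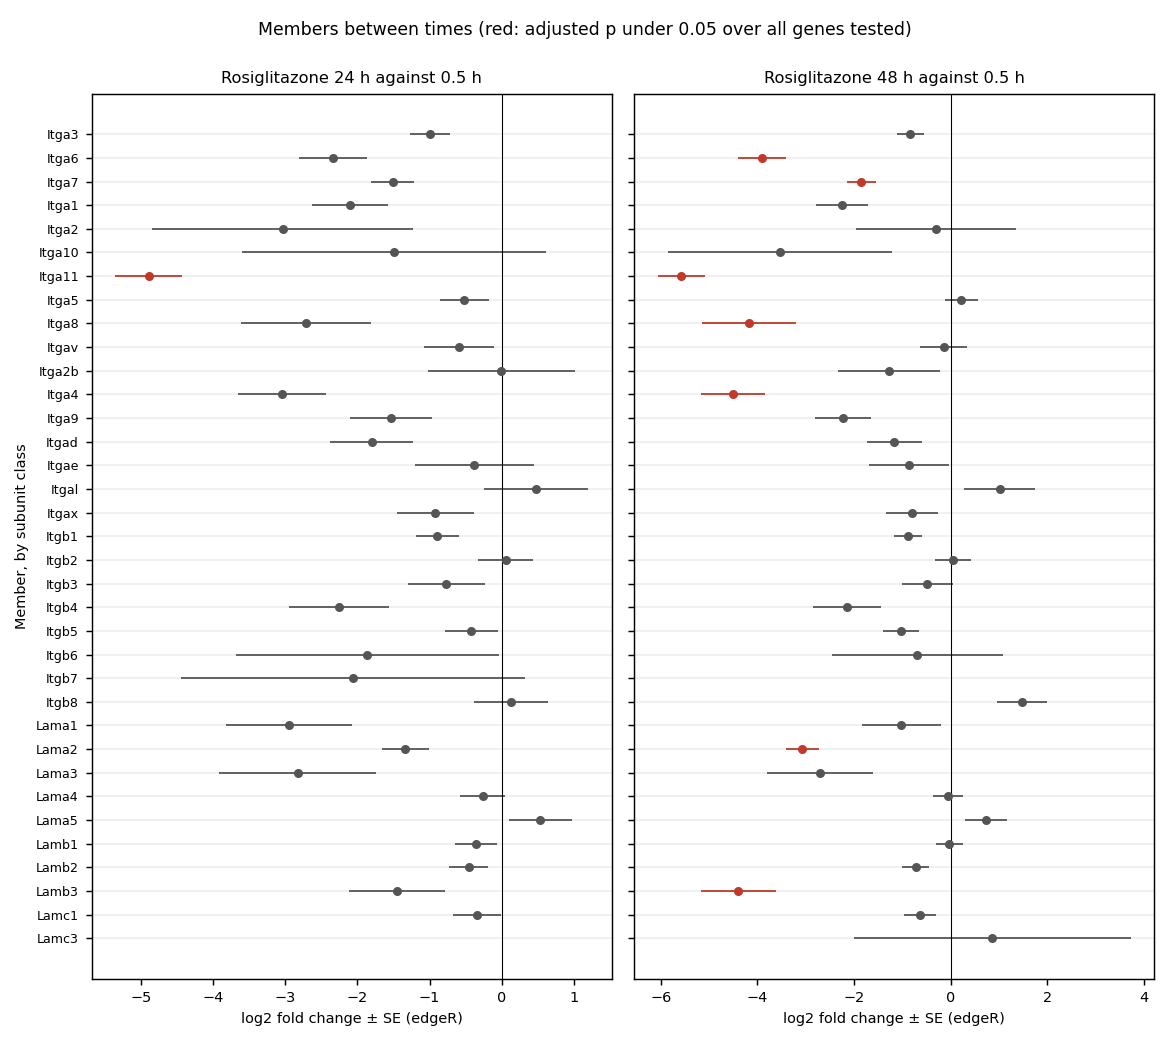
Log2 fold change with its SE from edgeR for rosiglitazone at 24 h (left) and 48 h (right) against rosiglitazone at 0.5 h, for the members described that had a count in both groups; red points passed the threshold. Itga11 is red in both panels, and Itgb8 is the highest point at 48 h (1.48).

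Among the laminin α chains, α2 fell, and α4 and α5 did not pass the test in the main fit of all 7 libraries. Lama2 (ENSRNOG00000011134), the α2 chain of muscle basement membrane, was at 420 CPM in DMSO and at 449 and 354 CPM with rosiglitazone at 0.5 h. It was at 141 and 178 CPM at 24 h and at 37.0 and 58.8 CPM at 48 h. Both libraries of each later time lay below those of the time before. By edgeR the log2 fold change of 48 h against 0.5 h was -3.07 ± 0.34 SE (adjusted p = 0.00926), and that of 24 h against 0.5 h was -1.34 ± 0.32 (adjusted p = 0.123).

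Lama4, the α4 chain, was at 453 CPM in DMSO, 513 and 373 CPM with rosiglitazone at 0.5 h, 299.8 and 438 CPM at 24 h and 452 and 404 CPM at 48 h. Its groups overlapped throughout, and 48 h against 0.5 h gave -0.05 ± 0.31. Lama5, the α5 chain, was at 182 CPM in DMSO, 219 and 185 CPM at 0.5 h, 160.4 and 426 CPM at 24 h and 348 and 324 CPM at 48 h. Both libraries of 48 h lay above those of 0.5 h, with means less than 2-fold apart, and by edgeR the difference of 0.73 ± 0.44 had an adjusted p of 0.372. With only the groups compared in the edgeR fit it was called higher at 48 h (0.74 ± 0.21, adjusted p = 0.0496). At 24 h it was called higher without replicate 1 of that time (1.07 ± 0.26, edgeR, adjusted p = 0.0472).

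The other α chains were low. Lama3, the epithelial α3 chain, was at 2.65 CPM in DMSO, 3.56 and 3.78 CPM with rosiglitazone at 0.5 h, 0.612 and 0.415 CPM at 24 h and 0.805 and 0.279 CPM at 48 h. The difference of 48 h against 0.5 h was -2.71 ± 1.09 (edgeR, adjusted p = 0.192), and that of 24 h was -2.83 ± 1.09 (edgeR, adjusted p = 0.276). Lama1, the α1 chain of early embryonic basement membranes, was at 6.79 CPM in DMSO, 8.52 and 3.63 CPM at 0.5 h, 0.393 and 1.17 CPM at 24 h and 3.00 and 2.98 CPM at 48 h. It was thus lowest at 24 h, with -2.95 ± 0.87 against 0.5 h (edgeR, adjusted p = 0.175), and 48 h against 24 h was 1.92 ± 0.85 (edgeR, adjusted p = 0.628).

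Of the β and γ chains, the epithelial β3 chain fell while the β1 and γ1 chains that most trimers share did not pass. Lamb3 (ENSRNOG00000006025), the β3 chain, was at 37.1 CPM in DMSO and 52.8 and 48.8 CPM with rosiglitazone at 0.5 h. At 24 h its libraries lay apart, at 31.1 and 6.26 CPM, and at 48 h they were at 1.94 and 2.98 CPM, below all earlier ones. The log2 fold change of 48 h against 0.5 h was -4.39 ± 0.77 (edgeR, adjusted p = 0.0221). At 24 h against 0.5 h the value was -1.45 ± 0.67 (edgeR, adjusted p = 0.350).

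Lamb1, the β1 chain found in many trimers, was at 1276 CPM in DMSO, 1319 and 1147 CPM with rosiglitazone at 0.5 h, 933 and 993 CPM at 24 h and 1061 and 1356 CPM at 48 h. Libraries of 48 h and 0.5 h overlapped, with a difference of -0.03 ± 0.28. Lamc1, the γ1 chain of most trimers, was at 2044 CPM in DMSO, 2151 and 1963 CPM at 0.5 h, 1226 and 2014 CPM at 24 h and 1391 and 1267 CPM at 48 h. Unlike for Lamb1, both libraries of 48 h lay below those of 0.5 h, with means less than 2-fold apart. The difference of Lamc1 at 48 h against 0.5 h was -0.63 ± 0.33 (edgeR, adjusted p = 0.312). Lamb2, the β2 chain of muscle and synaptic laminins, was at 274 CPM in DMSO, 353 and 296 CPM at 0.5 h, 232 and 240.4 CPM at 24 h and 167 and 225 CPM at 48 h (-0.73 ± 0.27, edgeR, adjusted p = 0.163). Its libraries of 48 h too lay below those of 0.5 h, with means less than 2-fold apart. Lamc3 had at most 38 counts in any library and no count at 24 h.

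Ratios of read counts within a library do not depend on the scaling between libraries. They show a change in makeup over time, not which chain is more abundant, and the pairs were chosen after the values were seen. Lama5 over Lama2 was 0.434 in DMSO, 0.488 and 0.524 with rosiglitazone at 0.5 h, 1.14 and 2.40 at 24 h and 9.39 and 5.51 at 48 h. Lamb1 over Lamb3 was 34.4 in DMSO, 24.98 and 23.5 at 0.5 h, 30.01 and 159 at 24 h and 547 and 456 at 48 h. Both ratios were higher at each later rosiglitazone time than at the one before, with replicate 1 of 24 h close to 0.5 h for β1 over β3. Lamb1 over Lamb2 was 4.65 in DMSO and 3.74 and 3.87 with rosiglitazone at 0.5 h. It was 4.01 and 4.13 at 24 h and 6.36 and 6.02 at 48 h. This ratio too was higher at each later rosiglitazone time than at the one before, over a narrower range.

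**Figure D3:**
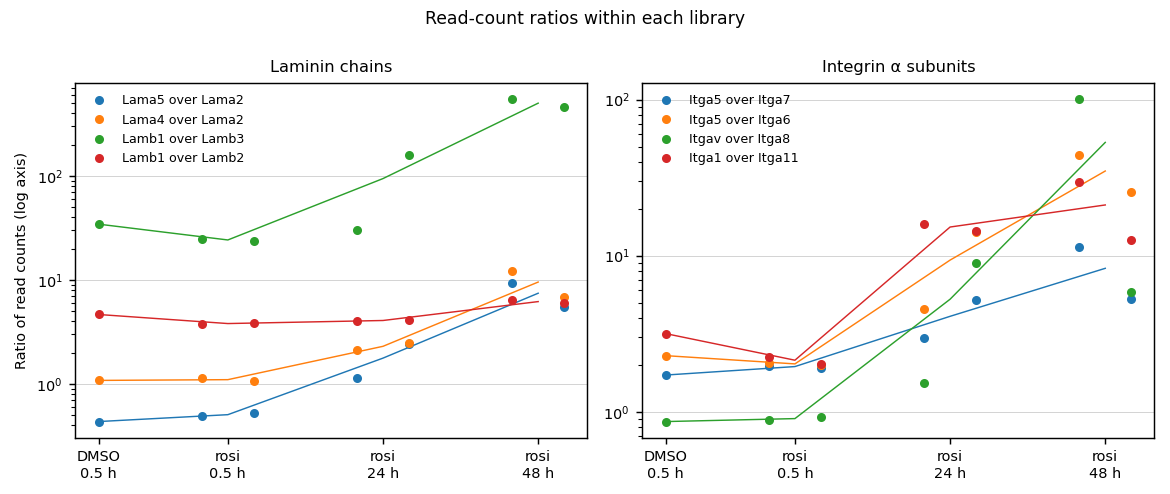
Ratio of read counts of pairs of laminin chains (left) and of integrin α subunits (right) in each library, on log axes; points are libraries and lines join group means. Lama5 over Lama2 goes up with each rosiglitazone time, and Itgav over Itga8 splits widely between the libraries of 48 h (100.5 and 5.84).

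The laminin-binding α subunits had lower values at both later times, and 2 of the 3 fell at 48 h. Itga7 (ENSRNOG00000007905), the α subunit that pairs with β1 as the laminin receptor of muscle, was at 105 CPM in DMSO and 106 and 106 CPM with rosiglitazone at 0.5 h. It was at 44.7 and 29.8 CPM at 24 h and 27.9 and 30.9 CPM at 48 h. The fall of 48 h against 0.5 h was -1.85 ± 0.30 (edgeR, adjusted p = 0.0179), and the difference at 24 h was -1.51 ± 0.30 (edgeR, adjusted p = 0.0964). Itga6 (ENSRNOG00000001518), which pairs with β1 or β4, was at 78.7 CPM in DMSO, 103 and 101 CPM at 0.5 h, 29.5 and 10.9 CPM at 24 h and 7.14 and 6.42 CPM at 48 h. Its fall at 48 h was -3.91 ± 0.50 (edgeR, adjusted p = 0.0126), and the 24 h difference was -2.34 ± 0.47 (edgeR, adjusted p = 0.0998).

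Itga3, the third laminin-binding subunit, was at 40.0 CPM in DMSO, 46.9 and 51.7 CPM with rosiglitazone at 0.5 h, 24.4 and 25.3 CPM at 24 h and 27.6 and 27.4 CPM at 48 h. The later libraries lay below all of 0.5 h, yet the difference of 48 h was -0.84 ± 0.28 (edgeR, adjusted p = 0.121). DESeq2 called Itga3 lower at 24 h and 48 h (adjusted p = 0.0292 and 0.0416). Itgb4, the β4 partner of α6 in hemidesmosomes, was at 5.62 CPM in DMSO, 7.04 and 7.56 CPM at 0.5 h, 1.40 and 1.66 CPM at 24 h and 1.28 and 2.05 CPM at 48 h. Its differences were -2.25 ± 0.69 at 24 h and -2.14 ± 0.70 at 48 h (edgeR, adjusted p = 0.188 and 0.116).

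The collagen-binding class held the member with the clearest fall. Itga11 (ENSRNOG00000006723), a collagen receptor subunit of fibroblasts, was at 40.0 CPM in DMSO and 67.0 and 50.9 CPM with rosiglitazone at 0.5 h. It was at 1.36 and 2.60 CPM at 24 h and 1.32 and 1.12 CPM at 48 h, and every later library lay far below every library of 0.5 h. The log2 fold change was -4.89 ± 0.46 at 24 h and -5.58 ± 0.49 at 48 h (edgeR, adjusted p = 0.0203 and 0.00610). The 24 h call was lost with either library of 0.5 h or either of 48 h left out (edgeR, adjusted p = 0.274, 0.143, 0.0716 and 0.0726), with log2 fold changes of -4.68 to -5.08.

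Itga1, the collagen receptor subunit of many mesenchymal and endothelial cells, was at 127 CPM in DMSO, 151 and 103 CPM with rosiglitazone at 0.5 h, 21.7 and 37.6 CPM at 24 h and 39.1 and 14.04 CPM at 48 h. Its later libraries all lay below those of 0.5 h, and the difference of -2.25 ± 0.53 at 48 h just missed the threshold (edgeR, adjusted p = 0.0504). At 24 h it was -2.10 ± 0.53 (edgeR, adjusted p = 0.135). At 48 h Itga1 was called lower with DESeq2 scaling, without a filter and with only the groups compared (edgeR, adjusted p = 0.0487, 0.0373 and 0.0341). It was not called with the replicate block. DESeq2 as the test called it lower at 24 h and 48 h (adjusted p = 0.00410 and 0.000486). Itga10, a cartilage collagen receptor subunit, was at 1.24 CPM in DMSO, 1.34 and 2.11 CPM at 0.5 h, 1.22 and 0 CPM at 24 h and 0.256 and 0 CPM at 48 h. Itga2, the collagen receptor subunit of platelets and epithelia, was at 0.778 CPM in DMSO, 3.17 and 1.27 CPM at 0.5 h, 0 and 0.528 CPM at 24 h and 2.89 and 0.651 CPM at 48 h. With levels this close to the limit of 3 counts, the errors of both were wide, at -3.54 ± 2.32 for Itga10 and -0.31 ± 1.66 for Itga2 at 48 h.

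The RGD receptor subunits did not move alike. Itga8 (ENSRNOG00000016538), a subunit known from smooth muscle and mesenchyme, was at 227 CPM in DMSO, 256 and 221 CPM with rosiglitazone at 0.5 h, 49.8 and 23.3 CPM at 24 h and 2.45 and 24.5 CPM at 48 h. Its fall at 48 h was -4.18 ± 0.97 (edgeR, adjusted p = 0.0485), and the libraries of 48 h lay far apart. This call was the least firm of those named. It was lost without either library of 0.5 h, without either of 24 h, without DMSO and without replicate 1 of 48 h (edgeR, adjusted p 0.0630 to 0.209). It was also lost without a filter, with the first split and with only the groups compared (edgeR, adjusted p = 0.164, 0.0548 and 0.0647). At 24 h the difference was -2.71 ± 0.90 (edgeR, adjusted p = 0.218). Itga5, the fibronectin receptor subunit, was at 180.1 CPM in DMSO, 210.2 and 203 CPM at 0.5 h, 133 and 155 CPM at 24 h and 315 and 164 CPM at 48 h. Its 48 h libraries lay on both sides of those of 0.5 h (0.21 ± 0.34).

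Itgav, the αv subunit, was at 197 CPM in DMSO, 226 and 205 CPM with rosiglitazone at 0.5 h, 75.9 and 209 CPM at 24 h and 246 and 143 CPM at 48 h. The rosiglitazone times overlapped with each other (-0.14 ± 0.48 at 48 h against 0.5 h), and both libraries of 0.5 h lay slightly above DMSO. Itga2b, the fibrinogen receptor subunit of platelets, lay between 0.549 and 2.86 CPM in all libraries, with -1.27 ± 1.05 at 48 h. Itga5 over Itga7 read ratios were 1.72 in DMSO, 1.98 and 1.92 at 0.5 h, 2.98 and 5.19 at 24 h and 11.3 and 5.31 at 48 h. This ratio of a fibronectin receptor subunit to the muscle laminin receptor subunit was thus higher in each later library than in any library of 0.5 h, and no test was made of it.

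Both subunits of the α4 and α9 class, which bind VCAM1, tenascin or spliced fibronectin, had lower values at the later times. Itga4 (ENSRNOG00000004861) was at 57.3 CPM in DMSO, 64.7 and 57.3 CPM with rosiglitazone at 0.5 h, 7.34 and 7.42 CPM at 24 h and 1.06 and 4.56 CPM at 48 h. Its fall at 48 h was -4.51 ± 0.66 (edgeR, adjusted p = 0.0156), and the difference at 24 h was -3.05 ± 0.61 (edgeR, adjusted p = 0.0998). Itga9 was at 85.8 CPM in DMSO, 119 and 106 CPM at 0.5 h, 20.9 and 56.7 CPM at 24 h and 13.7 and 34.6 CPM at 48 h. Its later libraries too lay below all of 0.5 h, with -1.54 ± 0.57 at 24 h and -2.23 ± 0.58 at 48 h (edgeR, adjusted p = 0.261 and 0.0673). At 48 h Itga9 was called lower by DESeq2 (adjusted p = 0.00252) and by edgeR with only the groups compared (adjusted p = 0.0198).

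No β subunit was called by edgeR in the main fit of all 7 libraries, with splits summed. The edgeR fit with the DMSO and rosiglitazone libraries of 0.5 h as 1 group called Itgb1 and Itgb4 lower at 48 h. The fit of only the groups compared called Itgb4 lower at 48 h. Without replicate 1 or 2 of 24 h, the 48 h differences were -0.88 and -0.92 for Itgb1 and -2.15 and -2.19 for Itgb4. Splits taken as separate replicates gave further β calls. DESeq2 called Itgb1 and Itgb4 lower at 24 h and at 48 h against 0.5 h. The authors' deposited table gave Itgb1, Itgb4 and Itgb5 as lower at 24 h against 0.5 h. It holds the 2 splits of each library as separate columns. Itgb1, the shared partner of most of the α subunits above, was at 2815 CPM in DMSO, 3152 and 2667 CPM with rosiglitazone at 0.5 h, 1554 and 1582 CPM at 24 h and 1747 and 1400.02 CPM at 48 h. Its later libraries all lay below those of 0.5 h, with means less than 2-fold apart and -0.89 ± 0.30 at both times (edgeR, adjusted p = 0.216 at 24 h and 0.125 at 48 h). Itgb5, a partner of αv, was at 109 CPM in DMSO, 114 and 118 CPM at 0.5 h, 102 and 71.3 CPM at 24 h and 38.6 and 75.4 CPM at 48 h (-1.02 ± 0.37 at 48 h, edgeR, adjusted p = 0.153). Itgb3, another partner of αv, overlapped between all rosiglitazone times except 24 h and 0.5 h, with -0.77 ± 0.53 there and -0.49 ± 0.53 at 48 h.

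Itgb8, the partner of αv that takes part in TGF-β activation, went the other way. It was at 18.1 CPM in DMSO, 15.95 and 13.3 CPM with rosiglitazone at 0.5 h, 10.8 and 21.2 CPM at 24 h and 57.4 and 23.8 CPM at 48 h. Both libraries of 48 h lay above every other library, with means at least 2-fold apart. The difference was 1.48 ± 0.52 against 0.5 h and 1.35 ± 0.52 against 24 h (edgeR, adjusted p = 0.143 and 0.546), so it did not pass the test. Itgb6 stayed at or under 2.33 CPM in every library and was at 1.58 and 2.07 CPM at 0.5 h against 1.01 and 0 CPM at 24 h (-1.86 ± 1.82). Itgb7 had at most 26 counts in a library and none at 48 h, at least 2.08-fold below its 0.5 h mean of 0.574 CPM.

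Rosiglitazone and DMSO could be set against each other at 0.5 h, though with 1 DMSO library an effect of the drug and a difference between libraries cannot be told apart. Leukocyte receptor subunits had lower values with rosiglitazone here, though none was called. Itgb2 (ENSRNOG00000001224), the β subunit shared by the leukocyte α subunits L, D and X, was at 31.6 and 61.6 CPM with rosiglitazone against 123 CPM in DMSO (-1.40 ± 0.45). Itgad (ENSRNOG00000019728), the αD subunit of macrophages, was at 18.0 and 24.0 CPM against 57.8 CPM in DMSO (-1.46 ± 0.66). Itgax (ENSRNOG00000036703), the αX subunit of dendritic cells and macrophages, was at 9.16 and 16.3 CPM against 38.2 CPM in DMSO (-1.59 ± 0.62). All 3 lay below DMSO in both libraries, and each had an adjusted p of 1 by edgeR.

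By edgeR, 0 of 36 members were called at 0.5 h, beside 0.0% of all genes, 2 members had an unadjusted p under 0.05 (0.607% of genes), and DESeq2 called 0 members (0.0108% of genes lower). With only the 2 groups compared in the fit, 3 were called, Itgad, Itgax and Itgb2, beside 1.18% of genes. The authors' deposited table gave 3 members as lower at an adjusted p under 0.05, Itgad, Itgax and Itgb2, beside 5.96% of genes. That table holds the 1 DMSO library as 2 columns, and whether these were counted as separate samples is not given. The authors' deposited table gave 6 as higher, Itga6, Itga9, Itgb3, Lamb3 and Itga11 among them, beside 5.07% of genes. Itgad and Itgax are neighbouring paralogs, so how reads were split between them is uncertain.

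All 12 macrophage markers had negative log2 fold changes at 0.5 h as well, with a median of -1.61. By edgeR 0 of them were called (0.0% of genes) and 4 had an unadjusted p under 0.05 (0.607% of genes). DESeq2 called 0 (0.0108% of genes lower). Their summed level was 275 and 389 CPM against 980 CPM in DMSO. The part of macrophage RNA in the integrin difference was not tested. Of 10 lymphocyte markers, 6 were at 0 in every library, and the sum was 4.82 and 5.67 CPM with rosiglitazone against 23.1 CPM in DMSO. Of 5 platelet markers, 2 were at 0 in every library, and the sum was 17.5 and 22.0 CPM against 44.4 CPM in DMSO. Their part was not tested either. The difference in markers went beyond leukocytes, since all 11 heart muscle markers had positive log2 fold changes at 0.5 h, with a median of 0.74. By edgeR 0 of them were called (0.0% of genes). Itgal, the αL subunit of lymphocytes and other leukocytes, was at 2.78 and 4.98 CPM against 7.28 CPM in DMSO (-0.91 ± 0.86), and Itgae, the αE subunit of tissue lymphocytes, was at 8.56 and 4.07 CPM against 4.21 CPM (0.59 ± 1.03).

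**Figure D4:**
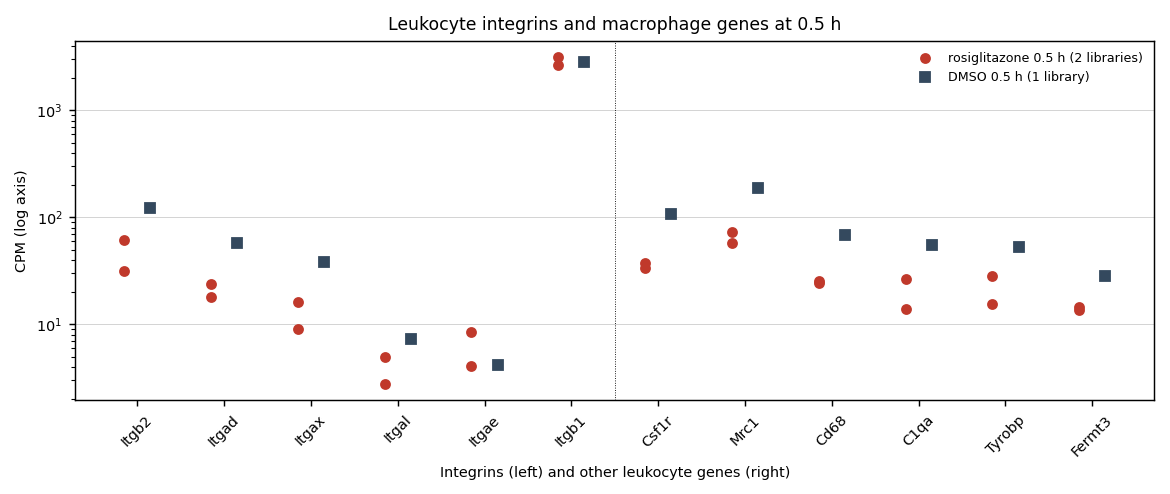
CPM on a log axis at 0.5 h of leukocyte integrin subunits and Itgb1 (left of the dotted line) and of macrophage and leukocyte genes (right), with 2 rosiglitazone libraries in red and the DMSO library in dark blue. Itgb2, Itgad and Itgax lie below DMSO in both rosiglitazone libraries, as do Csf1r and Mrc1, while Itgb1 does not.

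Outside the leukocyte class, at least 2-fold differences without overlap at 0.5 h were seen in low members. Itga2 was at 3.17 and 1.27 CPM with rosiglitazone against 0.778 CPM in DMSO (1.51 ± 2.18), and Lamc3 at 0.387 and 0 CPM against 1.34 CPM (-2.76 ± 3.27). In all, 4 members were lower in this way, beside 7.2% of genes, and 1 was higher, beside 5.38%. The median over the members was 0.08, beside 0.01 over all genes.

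At the later times the leukocyte subunits overlapped in most comparisons. Itgb2 was at 46.5 and 50.4 CPM at 24 h and 56.9 and 39.1 CPM at 48 h, within the range of rosiglitazone at 0.5 h. Itgad was at 6.03 CPM in both libraries of 24 h and 14.4 and 4.09 CPM at 48 h, below both libraries of 0.5 h, with -1.80 ± 0.58 and -1.17 ± 0.57 (edgeR, adjusted p = 0.204 and 0.273). Itgax was at 4.11 and 9.35 CPM at 24 h and 8.45 and 6.04 CPM at 48 h. The read ratio of Itgad to Itgb2 was 0.469 in DMSO, 0.571 and 0.390 at 0.5 h, 0.130 and 0.120 at 24 h and 0.253 and 0.105 at 48 h. Fewer αD reads per β2 read were thus present in every later library.

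From 24 to 48 h no member was called by edgeR, beside 0.0% of genes. An unadjusted p under 0.05 was reached by 6 members, beside 8.14% of genes. DESeq2 called 3 members lower, Lama2 and Lamb3 among them (2.5% of genes). In edgeR these chains had differences of -1.73 ± 0.33 and -2.95 ± 0.73. The 6 members whose 48 h libraries lay below those of 24 h, with means at least 2-fold apart, included these chains with Itga6, Itga4 and Itga2b, beside 8.08% of genes. Itgb8, Lama1 and Itga2 lay above in the same sense, beside 4.87%. The authors' deposited table gave Itga5, Itgb8 and Lama1 as higher and Itga6, Lama2 and Lamb3, among others, as lower at an adjusted p under 0.05, beside 6.99% and 9.46% of genes. For 24 h against 0.5 h the authors' deposited table had 21 members lower and 0 higher, beside 21.2% and 17.8% of genes.

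Genes that work with integrins and laminins were read from lists chosen for their function. Of 23 cytoplasmic activators and linkers tested, 6 fell at 48 h against 0.5 h and 0 rose, with a median of -0.70. Over all genes tested, 4.62% were called lower and 1.97% higher, with a median of -0.07. Lims2, the PINCH2 adaptor of integrin-linked kinase, was at 33.4 and 35.0 CPM with rosiglitazone at 0.5 h, 1.53 and 3.13 CPM at 24 h and 0.183 and 0 CPM at 48 h (edgeR, adjusted p = 0.00719). Actn1, the α-actinin that ties integrins to actin, fell by 2.41 ± 0.29 on the log2 scale, and Tns1, a tensin of focal adhesions, by 3.06 ± 0.41 (edgeR, adjusted p = 0.0106 and 0.0131). Flna, a filamin that binds β tails, fell by 2.08 ± 0.33 (edgeR, adjusted p = 0.0163). At 24 h 0 of the 23 were called, and 11 had an unadjusted p under 0.05 (15.7% of all genes). DESeq2 called 9 lower there (5.56% of genes).

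Of 17 integrin ligands other than laminins, 3 fell at 48 h, beside 4.62% of genes. Their median was -0.77, beside -0.07 over all genes. Cyr61, a matricellular ligand of αv and α6 integrins, was at 681 CPM in DMSO, 1437 and 1370.1 CPM with rosiglitazone at 0.5 h, 98.0 and 55.0 CPM at 24 h and 49.5 and 60.0 CPM at 48 h. It was the 1 ligand called at 24 h (-4.20 ± 0.38) and was also called at 48 h (-4.68 ± 0.39, edgeR, adjusted p = 0.0193 and 0.00521). Over all genes, 0.0447% were called lower at 24 h. Fbn1, the microfibril protein fibrillin-1, fell by 2.38 ± 0.34 at 48 h, and Thbs1, thrombospondin-1, by 2.93 ± 0.49 (edgeR, adjusted p = 0.0151 and 0.0188). Of 12 other basement membrane proteins, 2 fell at 48 h, Fbln2 (-3.66 ± 0.55) and Tinagl1 (-3.31 ± 0.58) (edgeR, adjusted p = 0.0161 and 0.0223). The share over all genes was 4.62%, and the list median was -0.76, beside -0.07 over all genes. Nid1, the nidogen that links laminin to collagen IV, was at 2014 and 1813 CPM at 0.5 h and 704 and 243 CPM at 48 h (-2.01 ± 0.49, edgeR, adjusted p = 0.0548).

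Laminin receptors other than integrins had the lowest median of these lists at 48 h, -1.33, with 3 of 14 called lower and 0 higher. Over all genes the median was -0.07, with 4.62% called lower and 1.97% higher. Dmd, dystrophin, which links dystroglycan to actin in muscle, was at 183 and 149 CPM with rosiglitazone at 0.5 h, 106 and 151 CPM at 24 h and 22.7 and 52.7 CPM at 48 h (-2.14 ± 0.43, edgeR, adjusted p = 0.0339). Sspn, sarcospan of the same complex, fell by 2.04 ± 0.38, and the syndecan Sdc3 by 1.59 ± 0.33 (edgeR, adjusted p = 0.0269 and 0.0371). At 24 h edgeR called 0 of the 14, and 2 had an unadjusted p under 0.05 (15.7% of genes). DESeq2 called 2 lower there (5.56% of genes).

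Markers of several cell types were lower at 48 h along with the members. Of 11 heart muscle markers tested, 9 fell at 48 h against 0.5 h, beside 4.62% of all genes. So did 4 of 8 endothelial, 4 of 10 smooth muscle and pericyte and 3 of 8 epicardial markers. Of 12 macrophage markers, 2 fell, while 4 had a positive log2 fold change, and the median was -0.77. Of 9 fibroblast markers, 5 had a negative log2 fold change, and the median was -0.66. By edgeR 0 of them fell and 2 rose (4.62% and 1.97% of genes). DESeq2 called 2 lower (12.1% of genes) and 3 higher (853 of 14376 genes). The 2 that rose by edgeR were Dcn by 2.85 ± 0.41 and Mmp2 by 1.34 ± 0.30 (edgeR, adjusted p = 0.0149 and 0.0447). Summed levels of smooth muscle and pericyte markers were 4747 and 4520 CPM with rosiglitazone at 0.5 h, 1556 and 854 CPM at 24 h and 337 and 921 CPM at 48 h. Endothelial sums were 221 and 245 CPM at 0.5 h, 115 and 80.6 CPM at 24 h and 54.7 and 57.3 CPM at 48 h, and epicardial sums were 377 and 385, 239 and 87.4, and 84.2 and 112 CPM. Fibroblast sums were 51561 and 53313 CPM at 0.5 h and 21655 and 37207 CPM at 48 h. Macrophage sums overlapped, at 275 and 389 CPM at 0.5 h and 208 and 403 CPM at 48 h. The part of these shifts in the fall of the members was not tested.

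**Figure D5:**
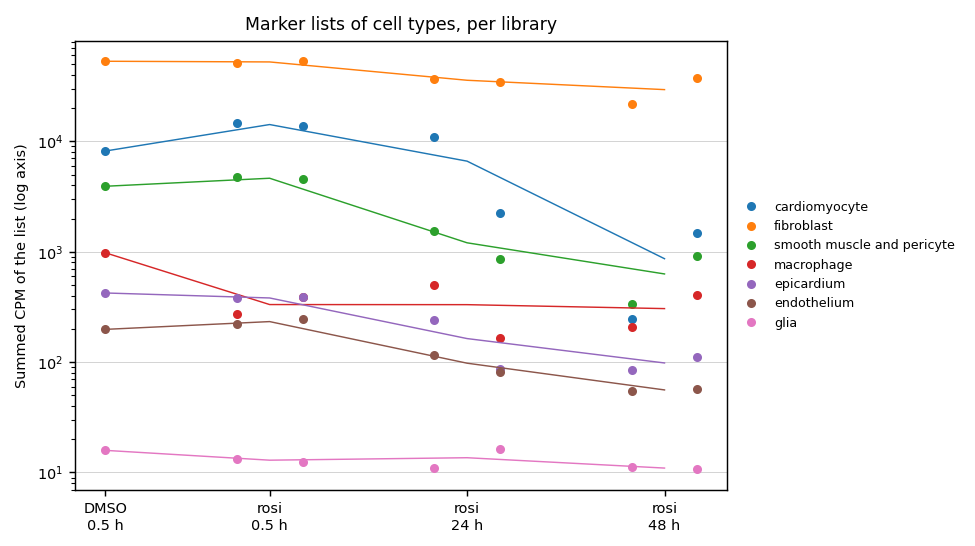
Summed CPM of marker lists of 7 cell types in each library, on a log axis; points are libraries and lines join group means. Heart muscle markers range from 245 CPM in a 48 h library to 14603 CPM with rosiglitazone at 0.5 h, and endothelial, epicardial and smooth muscle sums are lower at 48 h than at 0.5 h.

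Replicates of the later times differed in the members and in the markers, in part in the same order. At 48 h, Itga8, Itga4 and Itga9 were at 2.45, 1.06 and 13.7 CPM in replicate 1 and at 24.5, 4.56 and 34.6 CPM in replicate 2, and the heart muscle sum was 245 and 1484 CPM. This order was not particular to heart muscle markers. Sums were also lower in replicate 1 for smooth muscle and pericyte (337 and 921 CPM), fibroblast (21655 and 37207 CPM) and macrophage markers (208 and 403 CPM). The same held for epicardial, endothelial, lymphocyte and platelet sums, while the glial sum was 11.2 and 10.7 CPM. Itga5, Itgav, Itgb3 and Itgb8 were higher in replicate 1, the last at 57.4 CPM against 23.8 CPM in replicate 2. At 24 h, Lamb3 was at 31.1 CPM in replicate 1 and 6.26 CPM in replicate 2, and Itga6 at 29.5 and 10.9 CPM, where the heart muscle sum was 10995 and 2240 CPM and the epicardial sum 239 and 87.4 CPM. The other marker sums were also higher in replicate 1 of 24 h, except the glial sum. Itga9 was not in the order of Lamb3 and Itga6 at 24 h, at 20.9 CPM in replicate 1 and 56.7 CPM in replicate 2. Itga4 was nearly equal, at 7.34 and 7.42 CPM. Lama5 and Itgav had the opposite order too, at 160.4 and 75.9 CPM in replicate 1 and at 426 and 209 CPM in replicate 2. These differences rest on 2 libraries per time and were not tested.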

How the data were processed

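Libraries were made from myocyte RNA with a directional kit, per the labels' protocols. The authors deposited raw counts per gene as whole numbers, with a log2 fold change and an adjusted p-value for 3 comparisons, per the file headers. Tools listed in the submitters' processing notes, without roles, are HTSeq, DESeq2, cutadapt 1.11 and FastQC 0.11.5, with the builds Rnor_6.0 and hg19. For aligner and strand setting: not given in the sources used here.

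The 14 samples are 7 libraries of 2 splits each. Both splits of a library agree within sampling noise (7 chi-square tests over genes gave ratios to the degrees of freedom of 0.963 to 1.02 and a lowest p of 0.112), so they were summed and counted as 1 sample. In the authors' deposited comparisons the 2 splits of each library are separate columns. Whether they were counted there as separate samples is not given in the sources used here. The authors' calls are therefore not independent support. Repeated entries of a gene were used once. CPM uses library sizes scaled by TMM, and limits for counts of 0 cover counting error only.

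The test was edgeR 4.0.16 in R 4.3.3 (quasi-likelihood, robust, TMM, the tool's filter on low counts, 4 groups in 1 fit, 3 residual degrees of freedom) over 15655 genes, with Benjamini-Hochberg adjustment over all of them and a threshold of 0.05. A trial of it used simulated counts, drawn independently for each library with the spread estimated from these data. That trial cannot show how the test behaves where libraries are not separate cultures. All 36 members passed the filter, which a gene can pass through 1 library, so members near 0 were fitted too. The members, classes and gene lists were chosen with earlier results of these data known. Members are given in full where called, where groups did not overlap, means were at least 2-fold apart and the higher mean was at least 1 CPM, or where they had the most counts of their class. Other genes are named by the smallest p, up to 3 per list and comparison, and those named among markers, Nid1 and the pairs in ratios were chosen after their values were seen. Alternatives were DESeq2 1.42.0 as scaling and as test, other filters, splits taken apart, the groups compared alone, other thresholds, a replicate block and each library left out in turn. A fit with the DMSO and rosiglitazone libraries of 0.5 h as 1 group was added after seeing the data. The result of 1 member is not reported here by name, though counts and medians over the members hold it.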

Additional observations from a re-analysis of the deposited data

How the results depend on the processing

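None of the 49 fold changes of members followed through the alternatives reversed in any that was run. They were picked by a call or by groups without overlap and at least 2-fold apart in these same libraries. Reversals were therefore unlikely beforehand, and their absence is no support. In these alternatives, 685 results kept their side of the threshold, 85 passed it newly and 37 no longer passed. For 48 h against 0.5 h, the 8 calls (6.59% of all genes called) became 14 with DESeq2 as the test (18.0%), 22 with splits as separate replicates (47.9%), 11 with only the groups compared (19.6%), and 0 to 12 with 1 library left out (0.0773% to 17.5%). For 24 h against 0.5 h, the 1 call (0.0958%) became 13 with DESeq2 (8.32%), 20 with splits (38.9%), 4 without a filter (1.8%), 4 at a threshold of 0.10 (1.32%), 6 with the DMSO and rosiglitazone libraries of 0.5 h as 1 group (5.76%), 0 with only the groups compared (0.0%), 0 with the replicate block (0.00639%), and 0 to 5 with 1 library left out (0.0% to 6.52%). For 48 h against 24 h, 0 calls became 3 with DESeq2 (3.46%), 8 with splits (20.0%), and 0 to 4 with 1 library left out (0.0% to 3.31%). For rosiglitazone against DMSO, 0 calls became 1 with splits (0.539%) and 3 with only the groups compared (1.18%), and stayed 0 with 1 library left out. Splits are not independent samples, and where leaving out a library leaves 1 in its group, that library is assumed to vary like the other groups; other causes were not tested. Counts of members without overlap and at least 2-fold apart were 5, 18, 9 and 19 (in order: rosiglitazone over DMSO, 24 over 0.5 h, 48 over 24 h, 48 over 0.5 h). Over all genes the shares were 12.6%, 23.7%, 12.9% and 31.7%. At 4-fold the counts were 1, 10, 2 and 13 (5.54%, 11.1%, 6.7% and 16.9% of genes), and at 1.5-fold 8, 21, 11 and 25 (20.7%, 36.5%, 18.6% and 46.3%). Differences between replicates correlated at -0.083, 0.062 and -0.122 between the times. With 2 libraries per time, these values neither show nor exclude a pairing of libraries by replicate number. The replicate block left 6 of the 8 calls at 48 h (2.6% of genes), without Itga7 and Itga8. Levels per transcript length were not run, because no lengths were used here. With 2 libraries a group, an exact permutation test cannot go below p = 0.333.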
